A study of Mus musculus with 6 samples.

Results

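Genes of glucose uptake and glycolysis were examined in endothelial cells (EC) sorted from mouse lung. The set was defined by name and held 10 genes: the glucose carrier gene Slc2a1, the hexokinase genes Hk1 and Hk2, the regulatory kinase gene Pfkfb3, the phosphofructokinase genes Pfkl and Pfkp, and Aldoa, Pgk1, Eno1 and Ldha. Of these, 9 had a row among the 12623 genes of the table and all 9 reached the expression filter. Hk2 had no row and was not analysed here. The values were RPKM, reads scaled to the length of the transcript and to the reads mapped in the library, so that levels could be set side by side between genes as well as between libraries.

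The libraries came from infant C57BL/6N mice in the second postnatal week and from young adult mice of the same strain in about the third month of life, with 3 libraries per age and no genetic or drug treatment in either group. According to the methods of the study the mice were female, and the collected cells were alive, carried CD31 and CD34 and lacked PTPRC, LYVE1, PDPN and LY76. Number and pooling of animals per library were not given in the sources used here. The labels number the libraries and do not say whether they came from separate animals, so p-values measure only the spread between these libraries, which may be technical. The comparison asked which transcripts differ between EC of growing vessels and EC at rest.

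Glycolysis splits glucose into pyruvate in the cytosol. Glucose enters EC mainly through the carrier GLUT1, encoded by Slc2a1, hexokinase traps it as a phosphate, phosphofructokinase commits it to breakdown, and lactate dehydrogenase turns pyruvate into lactate. EC are known to draw most of their ATP from this route even in the presence of oxygen, and the phosphofructokinase activator PFKFB3 is known for its part in vessel sprouting. Many of these genes are textbook targets of the hypoxia-inducible factors and of MYC.

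The libraries differed in more than age. Endothelial transcripts were abundant in all 6, with Pecam1 between 309.8 and 657.8 RPKM and Cdh5 between 213.8 and 316.9 RPKM. The summed level of 16 endothelial markers was 3803.5 to 5544.1 RPKM in infant and 5886.3 to 6437.8 RPKM in young adult libraries. All 12 fibroblast markers had a lower mean in young adult EC, and their sum was 380.2 to 1362.3 against 14.4 to 29.3 RPKM. The same held for all 10 mural markers, with sums of 102.5 to 310.3 against 32.8 to 33.6 RPKM. Lymphatic endothelial markers had higher sums in young adult libraries, 269.0 to 411.5 against 90.2 to 193.5 RPKM, although 4 of the 5 measured had a lower mean there. Of 11 epithelial markers 10 had a lower mean in young adult EC (sums of 6503.1 to 11371.1 against 1836.0 to 8377.5 RPKM), as had all 12 leukocyte markers (327.0 to 528.3 against 143.5 to 561.6 RPKM). Globin transcripts took 11.0%, 3.41% and 23.5% of the summed RPKM of the infant libraries (replicates 1 to 3), against 0.487% or less in young adult libraries. The Y-linked gene Ddx3y measured 16.5 to 21.9 RPKM in infant libraries and was listed at 0 in all 3 young adult libraries, while Xist was present in both groups at 7.6 to 8.7 and 12.5 to 15.6 RPKM. The sex of the cells and their age therefore cannot be told apart, which bears on the X-linked gene Pgk1. In sorted populations, fewer cells of a type and less RNA per cell also cannot be told apart. What part these differences had in the results was not tested.

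A gene was called when its limma p, adjusted by Benjamini-Hochberg over all 12458 genes tested, was under 0.05 and its log2 fold change, taken on log2(RPKM + 1), exceeded 0.81 in size, the threshold of the study. Of the 9 members 1 was called, Aldoa, which rose in young adult EC. Over all genes tested, 11.4% were called, 3.33% of them higher and 8.1% lower in young adult EC out of the same total, so the share of members called lay near the background. The median log2 fold change of the members was 0.22, with 6 values above and 3 below 0, against a median of -0.07 over all genes. After rescaling without the globin genes the members' median was 0.12, against -0.16 over all genes. When scaled to the endothelial markers it was 0.057 against -0.22, and under quantile normalization it was 0.16 against 0.04. Without infant replicate 2 or young adult replicate 3 it was 0.14, against -0.07 and -0.09 over all genes. With the adjusted p alone and no fold threshold, Aldoa was again the 1 member that passed, where 25.5% of all genes did and 9.26% passed as higher. Groups without overlap were found for 2 members, Aldoa (higher) and Ldha (lower), and for 43.4% of all genes. Single libraries mattered over all genes too. The main fit called 1424 genes and the fit without infant replicate 2 called 1874, against 843 to 1220 without any other single library.

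**Figure D1:**
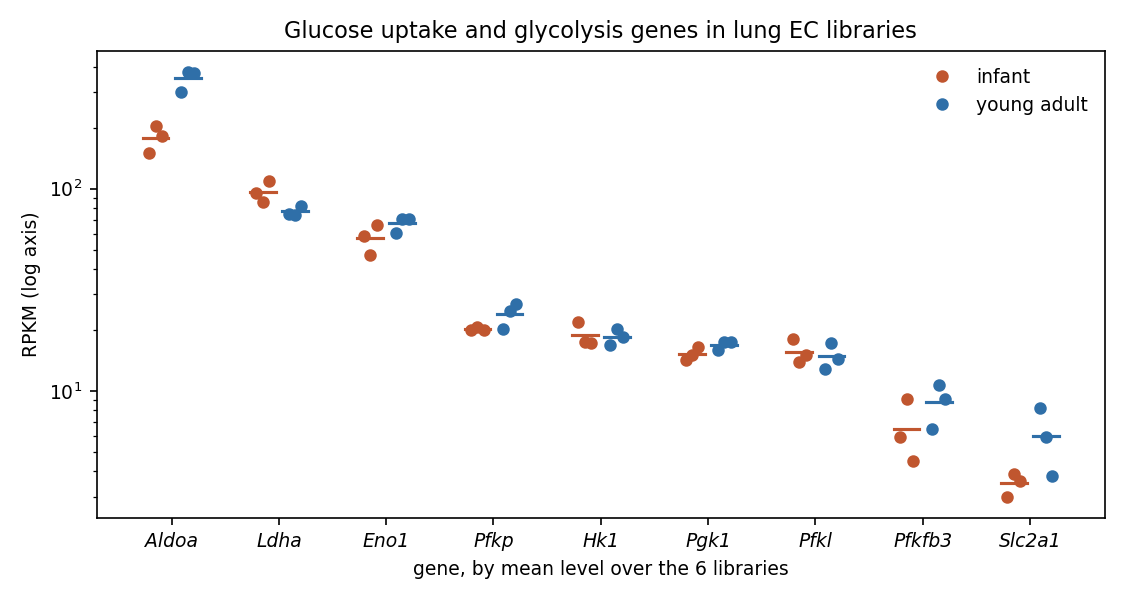
RPKM of the 9 measured members on a log axis, ordered by their mean over the 6 libraries, with 1 point per library and a bar at the mean of each age group (infant in orange, young adult in blue). Aldoa is the 1 gene whose young adult points, 301.3 to 377.8 RPKM, all lie well above its infant points at 150.9 to 203.2 RPKM.

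The levels spanned a wide range. Aldoa had the highest mean over the 6 libraries, 264.7 RPKM, followed by Ldha (86.9 RPKM) and Eno1 (62.3 RPKM), and the ranges of these 3 genes did not overlap. Pfkp (22.1 RPKM), Hk1 (18.7 RPKM), Pgk1 (16.1 RPKM) and Pfkl (15.3 RPKM) came next, each overlapping its neighbour in the order. Pfkfb3 (7.63 RPKM) and Slc2a1 (4.73 RPKM) were lowest and overlapped each other. Genes at the lower steps of the chain differ in how many near-identical copies the genome holds, and reads can be split among copies. In the GENCODE M21 transcripts, other genes matched over at least 50% of the length at 90% identity or more numbered 5 for Aldoa, 2 for Pgk1, 6 for Eno1 and 7 for Ldha, and none for Slc2a1, Hk1, Pfkfb3, Pfkl and Pfkp. The highest identity was 93.2% for Aldoa, 100% for Pgk1, 99.6% for Eno1 and 95.9% for Ldha. The levels of these 4 are uncertain to that extent, which differs between them. Gapdh, with 150 such copies, averaged 18.9 RPKM in infant and 22.5 RPKM in young adult EC, below Pkm at 106.8 and 113.0 RPKM, which has 5. Tpi1 and Pgam1, with 0 such copies, had levels near those of Gapdh. They averaged 16.5 and 20.3 RPKM (Tpi1) and 16.5 and 18.5 RPKM (Pgam1) in infant and young adult EC. The part of copies in any of these levels was not tested.

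To show the DNA in front of the enzyme genes, promoters were searched on both strands for the core letters that hypoxia-inducible factors recognise, ACGTG or GCGTG, in the 250 bases before a start site (RefSeq promoters, GRCm38.p6, the coordinates of mm10). All 10 genes had a promoter in the table. At the start nearest to the deposited transcript 8 of the 9 measured genes held a match, the exception being Aldoa. Counting every listed start, 15 of the 17 promoters of the 10 genes held a match, against 38.6% of all 32851 promoters. Some of these windows overlap, as for Aldoa and Eno1, so that the same matches are counted more than once. The letters G and C made up 49.6% to 71.2% of each window, and their share in all promoters was not computed. The comparison is therefore not a test of enrichment. A match is a description of the letters and not a binding site. ACGTG is also contained in CACGTG, the E-box that MYC recognises, which 6.02% of all promoters held. A start site of Aldoa, Pgk1 and Ldha is shown each, because these genes had a rise, a small difference and values below the infant ones, respectively. Capitals mark the matches, and all 3 runs are free of annotated exons in GENCODE M21.
Aldoa, chr7:126799255-126799504, minus strand: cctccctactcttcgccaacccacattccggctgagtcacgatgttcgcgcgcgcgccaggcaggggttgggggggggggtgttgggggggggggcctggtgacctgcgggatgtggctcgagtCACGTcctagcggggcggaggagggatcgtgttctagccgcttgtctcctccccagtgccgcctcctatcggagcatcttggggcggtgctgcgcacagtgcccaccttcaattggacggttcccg
Pgk1, chrX:106186850-106187099, plus strand: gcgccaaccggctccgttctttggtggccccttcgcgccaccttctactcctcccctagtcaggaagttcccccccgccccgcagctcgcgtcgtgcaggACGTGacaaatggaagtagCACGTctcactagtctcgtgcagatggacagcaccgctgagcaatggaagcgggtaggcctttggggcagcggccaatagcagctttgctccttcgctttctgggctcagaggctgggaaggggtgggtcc
Ldha, chr7:46845554-46845803, plus strand: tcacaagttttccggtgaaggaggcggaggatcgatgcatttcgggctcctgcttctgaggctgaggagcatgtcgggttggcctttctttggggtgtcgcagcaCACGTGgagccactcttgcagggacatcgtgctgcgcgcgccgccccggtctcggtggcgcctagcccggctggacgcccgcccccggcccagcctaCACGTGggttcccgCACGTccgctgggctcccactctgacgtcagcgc
The Aldoa run held 1 match, 126 bases before the start. The Pgk1 run held 2, 150 and 131 bases before the start. The Ldha run held 3 separate sites, the first and the second of them CACGTG, which matches on both strands. The shown Aldoa start is that of transcript NM_007438, which lies 1193 bases from the start of the row with the highest level (NM_001177308), whose own 250 bases held no match.

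Glucose uptake was examined first. Slc2a1 (chromosome 4, 119108745 to 119137330) measured 3.0, 3.9 and 3.6 RPKM in the infant libraries (replicates 1 to 3) and 8.2, 5.9 and 3.8 in the young adult libraries (same order). The groups overlapped, because young adult replicate 3 lay below infant replicate 2. The ratio of the means was 1.70, and the log2 fold change of 0.59 (95% interval 0.07 to 1.10) did not pass (limma adjusted p 0.0911). The value depended on single libraries. Without young adult replicate 3 the log2 fold change was 0.83 at an adjusted p of 0.027, and without young adult replicate 1 it was 0.36 at an adjusted p of 0.229. Slc2a1 has no near-identical copy by the above criterion, and with levels this low the rounding of the table to 0.1 RPKM is a visible step.

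Of 10 other hexose carriers listed, 5 had a row and 4 were tested, and none was called. Slc2a10, which encodes the carrier GLUT10, had the highest mean of them, 5.32 RPKM. It measured 7.1, 4.3 and 6.8 in the infant and 4.3, 4.9 and 4.5 RPKM in the young adult libraries, above Slc2a1 in each infant library. Its log2 fold change was -0.32 (95% interval -0.71 to 0.07, limma adjusted p 0.193), and without infant replicate 2 it was -0.52 at an adjusted p of 0.00915. Slc2a3, the high-affinity carrier gene of neurons and blood cells, measured 1.1, 1.5 and 1.6 in the infant and 0.3, 0.9 and 0.4 RPKM in the young adult libraries. Its groups did not overlap, and its log2 fold change of -0.66 had a limma adjusted p of 0.0364 but stayed under the fold threshold. With a pseudocount of 0.1 it was called (-1.34), under quantile normalization its adjusted p was 0.321, and the adjusted p stayed under 0.05 in 2 of the 6 fits without 1 library (without infant or young adult replicate 2, the latter with a call).

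The hexokinase step showed no difference that could be detected. Hk1 (chromosome 10, 62268855 to 62379920), which encodes the hexokinase bound to mitochondria in most tissues, measured 21.9, 17.5 and 17.3 in the infant and 16.9, 20.3 and 18.4 RPKM in the young adult libraries. The values of the groups were mixed. The log2 fold change was -0.02 with a 95% interval of -0.31 to 0.26 (limma adjusted p 0.909), and its sign changed under median-of-ratios scaling. Since Hk2 had no row, the planned share of Hk1 among both could not be computed.

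Phosphofructokinase is assembled from liver-, platelet- and muscle-type subunits. Pfkl (chromosome 10, 77986947 to 78009807), the liver type, measured 18.0, 13.9 and 15 in the infant and 12.9, 17.3 and 14.4 RPKM in the young adult libraries, with a log2 fold change of -0.07 (95% interval -0.39 to 0.25, limma adjusted p 0.739). Pfkp (chromosome 13, 6579874 to 6649060), the platelet type, measured 20.1, 20.8 and 19.9 in the infant and 20.2, 24.8 and 27.0 RPKM in the young adult libraries. Young adult replicate 1 fell among the infant values, and the log2 fold change of 0.22 (95% interval -0.05 to 0.50) did not pass (limma adjusted p 0.196). Pfkm, the muscle type, averaged 11.8 and 11.9 RPKM in infant and young adult EC. All 3 subunits were thus present in every library, with Pfkp the most abundant in each. Pfkl made up 36.0%, 31.4% and 30.7% of their summed RPKM in infant and 29.6%, 31.6% and 26.6% in young adult libraries. The means were 32.7% ± 2.89 and 29.3% ± 2.52 (SD, n = 3 each), a difference of -3.41 percentage points with an exact two-sided permutation p of 0.3 (0.3 adjusted over the 2 shares tested). The smallest p that 3 against 3 libraries allow is 0.1.

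Pfkfb3 (chromosome 2, 11471430 to 11554071) encodes the kinase that makes the strongest activator of phosphofructokinase. It measured 5.9, 9.1 and 4.5 in the infant and 6.5, 10.7 and 9.1 RPKM in the young adult libraries. The groups overlapped, and infant replicate 2 equalled young adult replicate 3. Its log2 fold change was 0.40 (95% interval -0.16 to 0.97, limma adjusted p 0.252). Without infant replicate 2 the value was 0.64 at an adjusted p of 0.0411, still under the fold threshold. Without infant replicate 3 it was 0.20 (adjusted p 0.581), and without young adult replicate 2 it was 0.26 (adjusted p 0.551). The gene had 8 transcript rows, with means from 7.20 to 7.63 RPKM, which share most of their exons and are not separate measurements. The related kinase genes Pfkfb1, Pfkfb2 and Pfkfb4 had group means of 2.7 RPKM or less, below Pfkfb3, and none was called. Fbp1, which encodes the phosphatase that opposes phosphofructokinase itself, was scarce at 0.7, 0.5 and 0.5 in the infant and 1.3, 1.5 and 1.6 RPKM in the young adult libraries. Its groups did not overlap (log2 fold change 0.66, limma adjusted p 0.0134, under the fold threshold). It was called with a pseudocount of 0.1 (1.24) and under quantile normalization (1.04), and without young adult replicate 2 its adjusted p was 0.0595.

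Aldoa (chromosome 7, 126795234 to 126800994) encodes aldolase A, which splits fructose bisphosphate into triose phosphates. It measured 150.9, 203.2 and 181.4 RPKM in the infant libraries (replicates 1 to 3) and 301.3, 377.8 and 373.7 in the young adult libraries (same order). Every young adult library lay above every infant library, and infant replicate 2 was the highest of the infant libraries. Its mean was 178.5 ± 26.3 RPKM at the infant and 350.9 ± 43.0 RPKM at the young adult age (SD, n = 3 each), which is 1.97 times the infant level. On the log2 scale the change was 0.97 ± 0.16 (SE), with a 95% interval from 0.60 to 1.35 (limma adjusted p 0.007). Among all genes tested, 16.4% had young adult values that all lay above the infant ones. The call held in each of the 6 fits without 1 library, with log2 fold changes of 0.86 to 1.08. All 3 transcript rows of the gene had similar levels, with means from 249.7 to 264.7 RPKM, so the start sites cannot be told apart. When every library was scaled to its median endothelial marker, the log2 fold change was 0.80 (adjusted p 0.00857), just under the fold threshold. That scaling moved the median of all genes to -0.22, and relative to it Aldoa stood at 1.02, against 1.05 as deposited.

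Within the set, the share of Aldoa is unaffected by any single scaling factor per library, though not by quantile normalization. It took a share of the summed RPKM of the 9 members of 39.0%, 48.8% and 41.8% in infant and 58.2%, 61.0% and 60.6% in young adult libraries. The other 8 members together summed to 236.4, 212.8 and 252.2 in the infant and 216.1, 241.5 and 243.4 RPKM in the young adult libraries, means of 233.8 ± 19.8 and 233.7 ± 15.2 (SD, n = 3 each). Aldoa was singled out here after its values were seen, and no test was made of these sums.

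**Figure D2:**
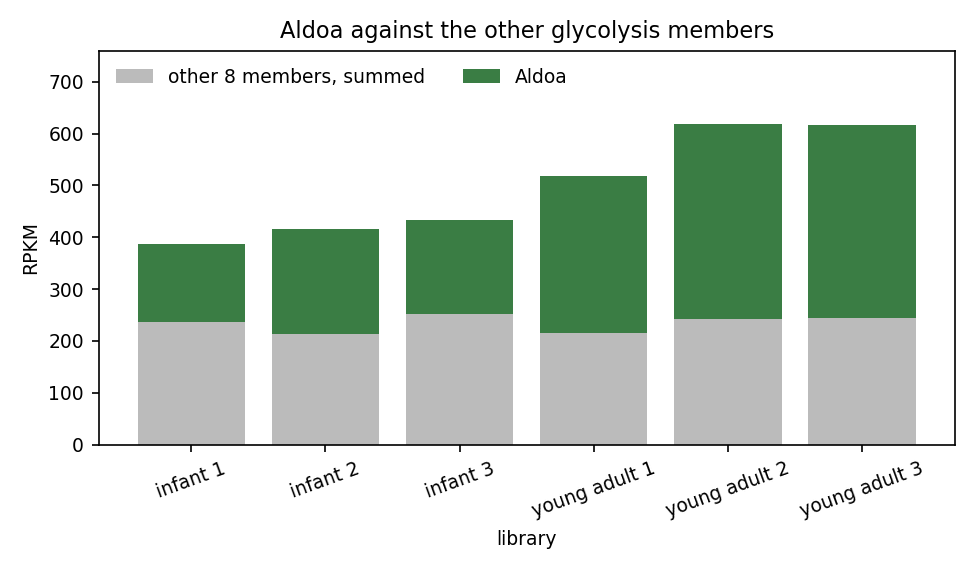
Summed RPKM per library, with Aldoa in green stacked on the sum of the other 8 measured members in grey. The grey parts lie between 212.8 and 252.2 RPKM in all 6 libraries, while the green parts are 150.9 to 203.2 RPKM in infant and 301.3 to 377.8 RPKM in young adult libraries.

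Further along the chain, neither Pgk1 nor Eno1 passed. Pgk1 (chromosome X, 106187100 to 106203699) encodes phosphoglycerate kinase, the first step that yields ATP. It measured 14.2, 15 and 16.4 in the infant and 15.9, 17.4 and 17.4 RPKM in the young adult libraries, with infant replicate 3 above young adult replicate 1. Its log2 fold change of 0.15 (95% interval -0.07 to 0.36) did not pass (limma adjusted p 0.287) and was -0.020 when scaled to the endothelial markers. Eno1 (chromosome 4, 150236708 to 150248879), which encodes alpha-enolase, measured 58.1, 47.0 and 66.2 in the infant and 60.5, 70.9 and 71.0 RPKM in the young adult libraries. The groups overlapped at infant replicate 3, and the log2 fold change was 0.25 (95% interval -0.09 to 0.58, limma adjusted p 0.238). The upper ends of these intervals lie under the fold threshold of 0.81 (log2), as do both ends for Hk1, Pfkl and Pfkp.

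Ldha (chromosome 7, 46842274 to 46855627) encodes the lactate dehydrogenase subunit that favours lactate formation. It measured 95.2, 85.6 and 109.3 in the infant and 75, 74.2 and 82.3 RPKM in the young adult libraries. Every young adult value lay below every infant value, as held for 27.1% of all genes tested. In infant libraries the order of Ldha, like that of Eno1, was that of the globin share (11.0%, 3.41% and 23.5%). In young adult libraries the orders differed. The part of red cell RNA in the values of both genes was not tested. The means of Ldha were 96.7 ± 11.9 and 77.2 ± 4.46 RPKM (SD, n = 3 each), a ratio of 0.798, and the log2 fold change of -0.32 (95% interval -0.60 to -0.03) did not pass (limma adjusted p 0.0931). Its adjusted p was under 0.05 without infant replicate 2 (-0.40, 0.0274), with array weights (-0.39, 0.0254), under quantile normalization (-0.41, 0.0406) and without the globin genes (-0.42, 0.0403), each under the fold threshold, and it was 0.128 to 0.238 in the other 5 fits without 1 library. Ldhb, the gene of the subunit that favours the oxidation of lactate, measured 12, 18.9 and 16.9 in the infant and 2.3, 8.2 and 11.0 RPKM in the young adult libraries. Its groups did not overlap either, and its log2 fold change of -1.22 (95% interval -2.24 to -0.21) had an adjusted p of 0.0769. It was -0.67 without young adult replicate 1, and it was called after rescaling without the globin genes (adjusted p 0.0438) and when scaled to the endothelial markers (0.0262). The epithelial marker sums were 6503.1, 11371.1 and 8481.8 RPKM at the infant and 1836.0, 4822.4 and 8377.5 RPKM at the young adult age. The leukocyte marker sums were 327.0, 528.3 and 465.5 RPKM at the infant and 143.5, 311.8 and 561.6 RPKM at the young adult age. Both lists had the same order of libraries as Ldhb within each age, and their part in the value of Ldhb was not tested. Ldhb has 1 near-identical copy. Ldha made up 88.8%, 81.9% and 86.6% of both subunits in infant and 97.0%, 90% and 88.2% in young adult libraries. The means of 85.8% ± 3.52 and 91.8% ± 4.65 (SD, n = 3 each) differed by 5.98 percentage points (exact two-sided permutation p 0.2, 0.3 adjusted over the 2 shares).

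**Figure D3:**
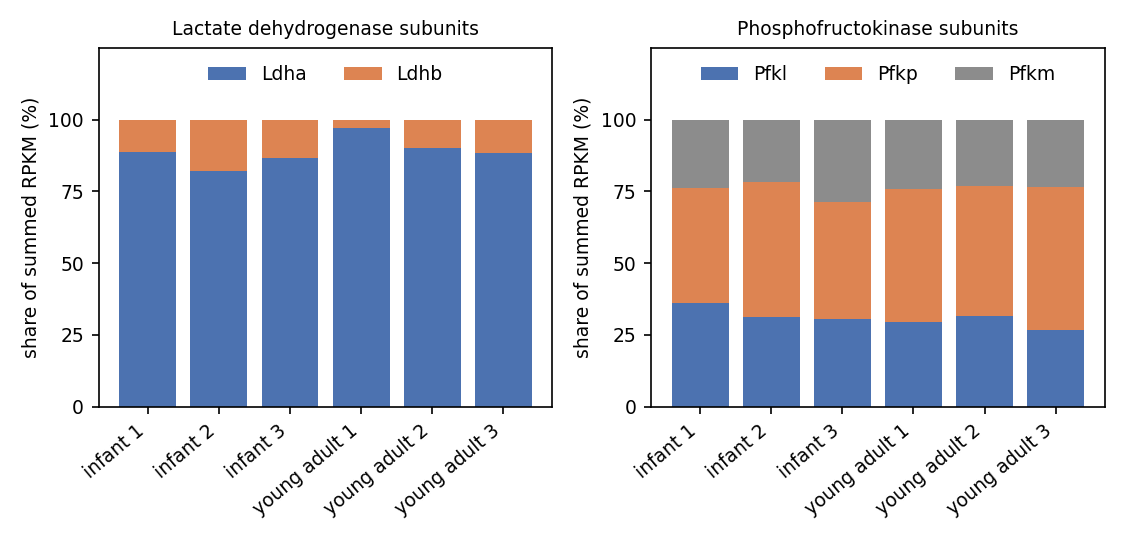
Share of each subunit gene in the summed RPKM (%), 1 bar per library, for lactate dehydrogenase on the left and phosphofructokinase on the right. Ldha makes up 81.9% to 97.0% of its pair, with infant replicate 1 (88.8%) inside the young adult range, and Pfkl makes up 26.6% to 36.0% of its group of 3.

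The other enzymes of the route from glucose to lactate were examined next. Of 17 further glycolytic enzymes 12 were measured with 0 calls (1 with the adjusted p alone), where 11.4% of all genes were, with 6 log2 fold changes above and 6 below 0 and a median of -0.02. Pkm, which encodes the pyruvate kinase that makes pyruvate, was the most abundant of them at 102.1, 103.0 and 115.2 in the infant and 103.4, 114.3 and 121.2 RPKM in the young adult libraries (log2 fold change 0.08, 95% interval -0.18 to 0.34, adjusted p 0.635). Its sign changed under quantile normalization, after rescaling without the globin genes and when scaled to the endothelial markers. Pgam2, the muscle form of phosphoglycerate mutase, averaged 1.83 RPKM at the infant and 0.733 RPKM at the young adult age (log2 fold change -0.72, limma adjusted p 0.0218, under the fold threshold). It was called with a pseudocount of 0.1 (-1.27), without young adult replicate 2 (-0.86) and when scaled to the endothelial markers (-0.82). Its adjusted p was 0.115 under quantile normalization and 0.0625 to 0.0763 when replicate 1 or 3 of either age was left out.

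**Figure D4:**
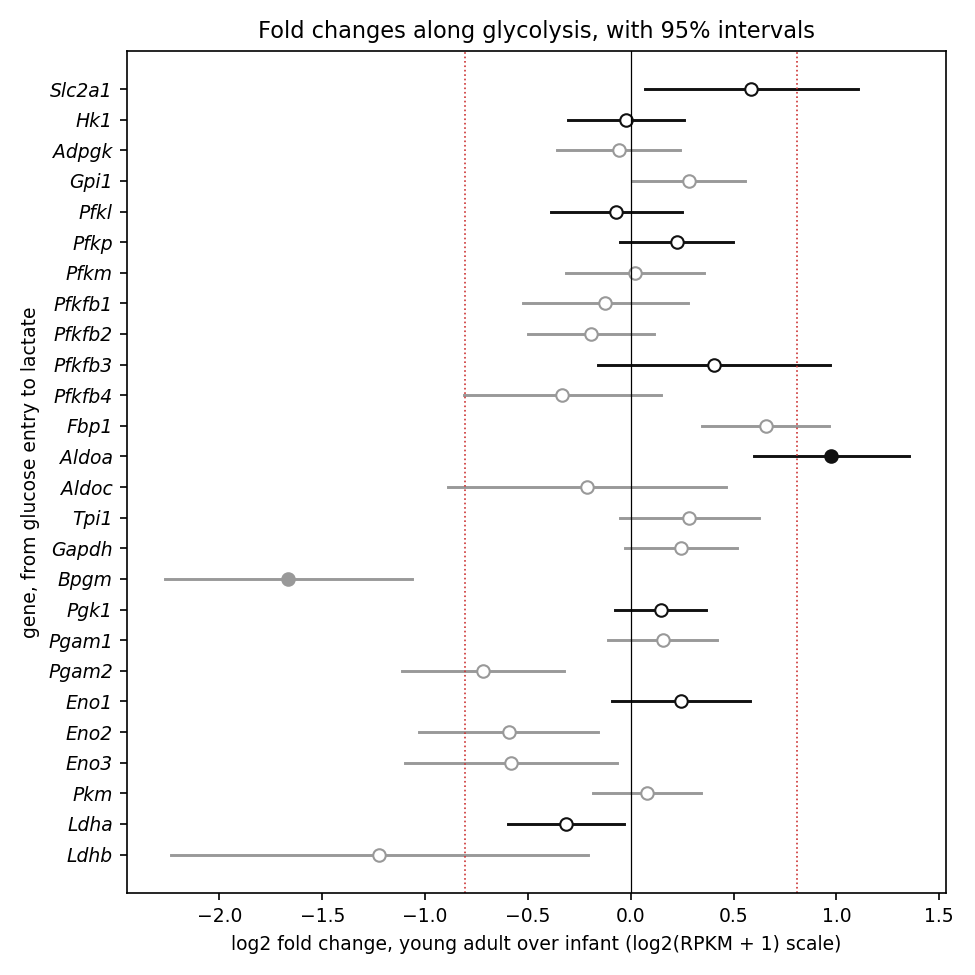
Log2 fold change of young adult over infant EC on the log2(RPKM + 1) scale, with 95% limma intervals, for members (black) and further genes of the route (grey) from glucose entry at the top to lactate at the bottom; filled points are called and dotted lines mark the fold threshold at 0.81 in either direction. Aldoa (0.97) and Bpgm (-1.67) are the 2 filled points.

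Of 7 listed genes of fructose bisphosphate control or of a bypass further along the chain, 5 were tested and 1 was called. The called gene, Bpgm, belongs to the bypass and not to the fructose bisphosphate step. Bpgm, which encodes the mutase that makes the regulator of oxygen release in red cells, fell in young adult EC. It measured 59.2, 39.2 and 78.9 in the infant and 13.5, 17.5 and 21.6 RPKM in the young adult libraries, a log2 fold change of -1.67 ± 0.26 (SE, limma adjusted p 0.00549), and the call held in all 6 fits without 1 library. Among the infant libraries its order was that of the globin share of 11.0%, 3.41% and 23.5%. Among the young adult libraries, with globin shares of 0.307%, 0.487% and 0.397%, the order differed. Bpgm is itself an erythroid marker, and the part of red cell RNA in its value was not tested.

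Around glycolysis, 74 genes in 7 lists were examined, of which 54 were tested. 3 were called, 1 higher and 2 lower, where 11.4% of all genes were. No gene of the pentose phosphate pathway (6 tested), of pyruvate entry into mitochondria (13 tested) or of lactate transport (1 tested) was called. Taldo1, the transaldolase gene and the most abundant of the first group at 93.8 RPKM on average, had a log2 fold change of 0.29 (95% interval -0.03 to 0.60, limma adjusted p 0.152). Pdhb, the beta subunit gene of pyruvate dehydrogenase and the most abundant of the second, averaged 41.3 RPKM with a log2 fold change of -0.13 (95% interval -0.39 to 0.13, adjusted p 0.427). Bsg, which encodes the partner protein of lactate carriers, averaged 76.6 RPKM with a log2 fold change of -0.03 (95% interval -0.26 to 0.19, adjusted p 0.827), and its sign changed under median-of-ratios scaling.

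With the adjusted p alone, 3 of the 13 genes of pyruvate entry were lower in young adult EC and none was higher, where 16.2% of all genes were lower by this rule. Pdk4, a kinase gene that shuts pyruvate dehydrogenase, was listed at 1.3, 1.1 and 1.2 in the infant and 0.2, 0.3 and 0.4 RPKM in the young adult libraries (log2 fold change -0.76, limma adjusted p 0.00952), with a call at a pseudocount of 0.1 (-1.73) and an adjusted p of 0.096 under quantile normalization. Pdk2, another such kinase gene, averaged 10.7 and 7.90 RPKM in infant and young adult EC (-0.40, adjusted p 0.0395). Pdha1, the X-linked gene of the alpha subunit that these kinases act on, averaged 42.8 and 29.7 RPKM (-0.51, adjusted p 0.0259). Among the fits without 1 library, the adjusted p of Pdk2 stayed under 0.05 only without young adult replicate 3 and that of Pdha1 only without infant replicate 2, with values up to 0.118 and 0.0855, while Pdk4 kept it in all 6. With the replicate block they were 0.0745 for Pdk2 and 0.0637 for Pdha1. In the pentose phosphate pathway Rpe, the ribulose phosphate epimerase gene, averaged 13.5 and 10.3 RPKM (-0.36, adjusted p 0.0194), and among the fits without 1 library it passed only without infant replicate 2 (up to 0.068 in the others).

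Among 13 tested regulators of glycolysis genes 2 were called, where 11.4% of all genes were. Txnip encodes a protein that removes GLUT1 from the cell surface and is induced by glucose. It rose from 161.4, 358.6 and 158.7 RPKM in infant to 364.6, 648.1 and 469.1 RPKM in young adult libraries, a log2 fold change of 1.19 ± 0.35 (SE, limma adjusted p 0.0416). Infant replicate 2 came close to young adult replicate 1. Leaving out single libraries ended the call in 5 of 6 cases, with adjusted p from 0.0689 to 0.146. The call was kept without infant replicate 2 (log2 fold change 1.58, adjusted p 0.00142). It was also kept when scaled to the endothelial markers (1.02, adjusted p 0.0164) and lost under robust eBayes (adjusted p 0.0502). Infant replicate 2 had the highest endothelial marker sum of the infant libraries (5544.1 RPKM, against 4138.9 and 3803.5). The part of this in the value of Txnip was not tested. Myc, which encodes a transcription factor that drives growth and glycolysis genes, fell from 5.5, 3.6 and 5.0 RPKM to 1.8, 1.3 and 1.9 RPKM, a log2 fold change of -1.09 ± 0.16 (SE, limma adjusted p 0.00471). Its call held in all 6 fits without 1 library and was lost with a pseudocount of 5 (-0.54).

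The hypoxia-inducible factor genes had opposite signs. Hif1a measured 9.2, 8.8 and 9.2 in the infant and 6.7, 6.4 and 5.9 RPKM in the young adult libraries, without overlap (log2 fold change -0.46 ± 0.09 SE, limma adjusted p 0.0123, under the fold threshold). Epas1, the endothelial paralogue, was far more abundant at 154.0, 214.8 and 130.5 in the infant and 231.7, 246.7 and 200.4 RPKM in the young adult libraries. Its groups overlapped at infant replicate 2, and the log2 fold change of 0.47 (95% interval 0.01 to 0.92) did not pass (adjusted p 0.115), while without infant replicate 2 it was 0.67 at an adjusted p of 0.008. Vhl, whose product marks both factors for breakdown, averaged 6.13 and 4.47 RPKM (-0.39, adjusted p 0.0247). It stayed under the fold threshold. Among the fits without 1 library it passed only without infant replicate 2, the fit with the most genes called (1874). Its limma adjusted p was up to 0.0823 in the others.

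**Figure D5:**
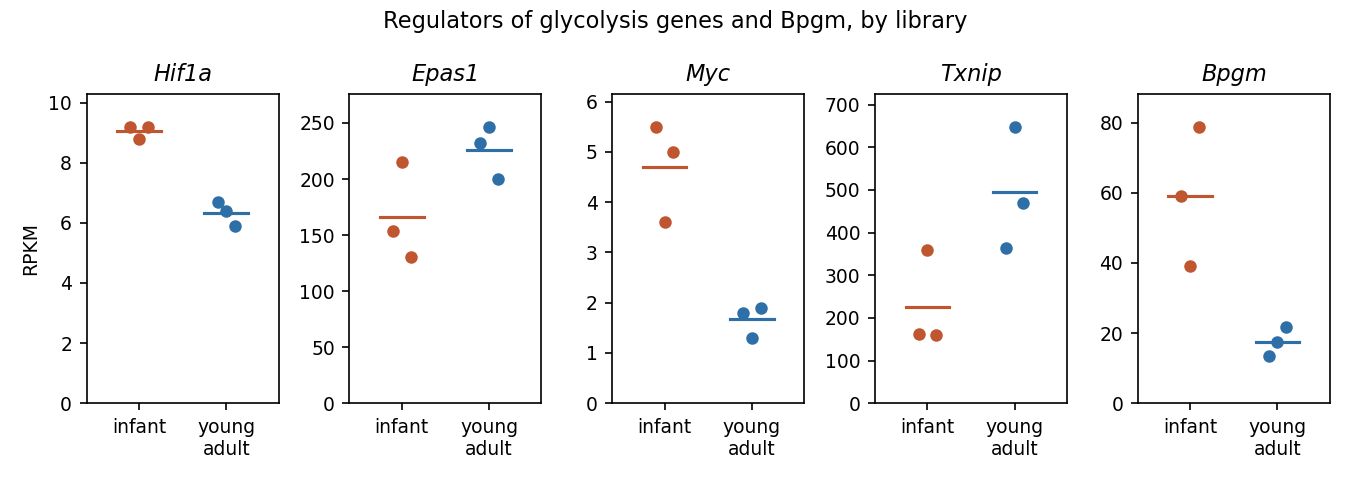
RPKM per library for Hif1a, Epas1, Myc, Txnip and Bpgm, each on its own axis from 0, with 1 point per library and a bar at the mean of the 3 libraries (infant in orange, young adult in blue). Hif1a, Myc and Bpgm lie lower in all young adult libraries, Txnip lies higher (364.6 to 648.1 against 158.7 to 358.6 RPKM), and Epas1 overlaps.

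Genes with profiles nearest to the 2 low-level members were then listed, by the root mean square difference of log2(RPKM + 1) over the 6 libraries after centring each gene, among 6976 genes with a mean of at least 5 RPKM. Nearest to Slc2a1 were Fli1, an ETS transcription factor gene (0.13), Klf3, a zinc finger repressor gene (0.15), and Epb4.1, a membrane skeleton gene (0.15). Fli1 measured 32.1, 36.2 and 39.2 in the infant and 66.2, 47.7 and 42.7 RPKM in the young adult libraries, with young adult replicate 1 highest, as in Slc2a1. Nearest to Pfkfb3 were Nat6 (0.10), Ackr2, a scavenging chemokine receptor gene (0.11), and Tspan18, a tetraspanin gene (0.12). Ackr2 measured 67.6, 90.4 and 59.6 in the infant and 80.2, 106.7 and 101.6 RPKM in the young adult libraries, with infant replicate 2 above young adult replicate 1 as in Pfkfb3. Such shared features follow from picking genes by their profile and are not separate findings.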

How the data were processed

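Lung EC were sorted by the authors, RNA was amplified with the SMARTer Ultra Low kit, and reads were aligned with STAR to mm10 on the RefSeq annotation. The authors deposited RPKM values, 1 line per transcript (17241 in all) and 1 decimal each. The version of STAR and the tool behind the RPKM are not given in the sources used here. Read counts were not analysed here, and no counting error was attached. The study gives an average transcriptome coverage and states that samples shared sequencing lanes. Neither the depth nor the lane of each library is given in the sources used here. Groups and replicate numbers came from the sample titles.

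Symbols that had become dates (24 rows, 11 genes) were restored from the transcript identifier. Per gene the row with the highest mean was kept (12623 genes). Since the values were no counts, the count model of the study was not used. Ages were compared with limma (version 3.58.1, R version 4.3.3) on log2(RPKM + 1), with an intensity trend and age as the only term. Genes entered the fit if any library reached an RPKM of 1 (12458 genes). The pseudocount of 1 understates fold changes of low genes. Subunit shares were compared with exact permutation tests in SciPy 1.17.1. The fit was tested on simulated data.

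Members and lists were chosen with earlier results of these data known. The text names all members, the called genes of the lists, otherwise the most abundant gene of a list, and the 3 nearest profiles of Slc2a1 and Pfkfb3. Other genes were named after their values were seen. Alternatives were other pseudocounts, filters, scalings, variance settings, transcript rows and thresholds, a replicate block, leaving out each library and, added after seeing the data, scaling to the median endothelial marker. The deviations of same-numbered libraries correlated across genes at 0.03, -0.11 and -0.02. Such values cannot exclude a shared sorting or library batch, on which the labels are silent. Libraries were not paired in the main fit.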

Additional observations from a re-analysis of the deposited data

How the results depend on the processing

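The count of members called was 1 in 20 of 22 alternatives. It was 0 when scaled to the median endothelial marker, and among the fits without 1 library it ranged from 1 to 2, with Slc2a1 added without young adult replicate 3. The count in the wider lists, 3 as reported, ranged from 2 to 4 in the fits without 1 library and was 8 with a pseudocount of 0.1, 12 without a fold threshold, 7 with a fold threshold of 1.5 and 6 when scaled to the endothelial markers. With the replicate block the members gave 1 call and the wider lists 4, Ldhb being added (limma adjusted p 0.0338). Whether the replicate numbers pair the libraries is not known, so no conclusion was drawn from this fit. Signs changed for values near 0. Hk1 was 0.042 under median-of-ratios scaling and ranged from -0.087 to 0.083 without 1 library, and Pfkl ranged from -0.18 to 0.030. Pgk1 was -0.020 when scaled to the endothelial markers. Pkm was -0.056 under quantile normalization, -0.026 without the globin genes and -0.093 with the endothelial scaling. Bsg was 0.034 under median-of-ratios scaling, and without young adult replicate 1 it was 0.018, within a range from -0.070. The median of the members was 0.057 with the endothelial scaling, where that of all genes was -0.22. Txnip had an adjusted p of 0.0502 under robust eBayes. Quantile normalization moved the median of all genes to 0.04, and relative to it Aldoa stood at 0.77. The difference in the Ldha share was 3.35 to 7.76 percentage points and that in the Pfkl share -4.58 to -1.75 in the fits without 1 library. The Hk1 share and the Hk2 profile were not run. Low genes such as Slc2a1 and Pdk4 are limited by the rounding and by the depth of each library, which was not known.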
